A study of Mus musculus with 36 samples.

Results

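The core genes of the mammalian circadian clock were examined in mouse embryonic stem cells. The set comprises Per1, Per2, Per3, Cry1, Cry2, Nr1d1, Nr1d2, Dbp, Bhlhe40 and Clock, matched by gene symbol in a table of 54842 genes. All 10 of them were among the 18193 genes with enough reads to test. RNA was sequenced from wild-type (WT) cells and from cells transfected with LiTEC, the study's light-driven system for reaching endogenous condensates. Each genotype was either exposed to blue light for 30 min ("lit") or kept without light ("dark"), and RNA was taken 0, 1 or 4 h after that period, which gives 12 groups of 3 libraries. All 36 libraries, wild-type controls included, came from cells given doxycycline at 2 µg/ml for 2 days and grown in serum-free medium with LIF, a MEK inhibitor and a GSK3β inhibitor. Whether the LiTEC cells are 1 clone or a pool, and what drives the LiTEC transgene, is not given in the sources used here.

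The clock is a transcriptional feedback loop. CLOCK and its partner BMAL1 (gene Arntl) bind E-box sequences and activate the Per and Cry genes, whose proteins return to the nucleus and repress CLOCK and BMAL1. Nr1d1 and Nr1d2 encode the REV-ERB repressors, which silence Arntl. DBP activates genes through D-box sequences, and BHLHE40 (DEC1) is an E-box-binding repressor that also responds to many acute signals. Per1 is in addition an immediate target of acute stimuli such as cAMP signalling and glucocorticoids. Pluripotent stem cells are known to express these genes without the running oscillation that appears on differentiation.

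Start-site sequences are shown for the 5 genes whose promoter held one of the clock motifs searched, since these elements tie the members to one another. RefSeq promoters (GRCm38.p6; 250 bases before the start and 50 from it) were found for 8 of the 10 genes, 11 promoters in all; Per2 and Bhlhe40 had none. The searched letters were the E-box CACGTG, the E'-box CACGTT, the D-box TTATGTAA, the core of the ROR and REV-ERB element TAGGTCA, the cAMP response element TGACGTCA and the heat shock element GAANNTTC, each on both strands, and capitals mark the matches (an E'-box on the other strand reads AACGTG). Of the Per1 promoters, that at chr11:69099902-69100201 held none of the searched motifs and is not shown. The Per1 promoter shown is chr11:69098699-69098998 on the plus strand, with an E-box at -166 from the start site.
Per1: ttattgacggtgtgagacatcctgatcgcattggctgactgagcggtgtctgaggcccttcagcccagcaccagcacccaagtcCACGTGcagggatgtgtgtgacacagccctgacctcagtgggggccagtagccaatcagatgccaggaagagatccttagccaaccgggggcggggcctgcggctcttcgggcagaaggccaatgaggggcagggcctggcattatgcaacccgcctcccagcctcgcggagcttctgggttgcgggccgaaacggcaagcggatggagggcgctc
The Cry1 promoter is chr10:85185005-85185304 on the minus strand, with an E'-box at -79 and an E-box at -60 from the start site.
Cry1: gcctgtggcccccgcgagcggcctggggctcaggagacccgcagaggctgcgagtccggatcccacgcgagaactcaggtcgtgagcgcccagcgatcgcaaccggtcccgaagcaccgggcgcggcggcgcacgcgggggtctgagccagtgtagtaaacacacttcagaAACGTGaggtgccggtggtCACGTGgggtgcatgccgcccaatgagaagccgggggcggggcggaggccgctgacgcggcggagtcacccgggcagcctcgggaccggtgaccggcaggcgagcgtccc
The Cry2 promoter is chr2:92434020-92434319 on the minus strand, with 1 E'-box.
Cry2: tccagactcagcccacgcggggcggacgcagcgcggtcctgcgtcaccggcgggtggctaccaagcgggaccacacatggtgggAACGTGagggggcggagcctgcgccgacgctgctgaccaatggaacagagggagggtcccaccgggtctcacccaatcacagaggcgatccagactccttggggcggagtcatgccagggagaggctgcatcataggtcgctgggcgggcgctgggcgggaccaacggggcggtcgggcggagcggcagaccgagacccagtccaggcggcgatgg
The Nr1d1 promoter is chr11:98775328-98775627 on the minus strand, with 1 E'-box.
Nr1d1: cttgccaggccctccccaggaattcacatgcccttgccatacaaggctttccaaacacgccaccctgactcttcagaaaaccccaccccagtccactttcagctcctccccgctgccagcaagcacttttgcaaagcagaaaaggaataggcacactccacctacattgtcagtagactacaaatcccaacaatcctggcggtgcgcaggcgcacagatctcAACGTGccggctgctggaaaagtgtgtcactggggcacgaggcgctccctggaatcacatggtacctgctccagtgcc
The Per3 promoter is chr4:151044616-151044915 on the minus strand, with D-boxes at -205 and -158 from the start site.
Per3: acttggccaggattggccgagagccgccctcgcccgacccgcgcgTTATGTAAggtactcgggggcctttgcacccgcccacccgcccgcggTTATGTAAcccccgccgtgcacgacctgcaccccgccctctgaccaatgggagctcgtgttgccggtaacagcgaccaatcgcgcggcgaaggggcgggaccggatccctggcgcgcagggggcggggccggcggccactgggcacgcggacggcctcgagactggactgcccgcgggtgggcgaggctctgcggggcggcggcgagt
The E-box was present in 7.15% of 32851 promoters of this length, the E'-box in 4.68% and the D-box in 0.938%. No match to the REV-ERB core, the cAMP response element or the heat shock element lay in a member's window, and 2.61%, 1.79% and 7.86% of all promoters held them.

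Library totals ranged from 11132970 to 21842256 counts. The ribosomal RNA locus Gm26917 took 8.12% to 26.1% of a library, with the highest share in replicate 3 of WT dark 4 h, and the counts of members called below were the same without it and Gm42418. Replicate 1 of each group belongs to batch 1, and replicates 2 and 3 to batch 2. Whether replicates came from separate cultures is not stated in the labels; the spread behind each p-value is that between libraries and may be only technical. Summed CPM of 7 markers of naive embryonic stem cells was 2246 to 2750 in the batch 1 libraries and 3051 to 3678 in batch 2, while 6 fibroblast markers summed to at most 9.36 CPM in WT dark and 4.77 CPM in LiTEC dark libraries, and 5 primitive endoderm markers to 5.34 to 9.19 CPM in WT dark and 7.40 to 14.7 CPM in LiTEC dark. Summed CPM of 4 neuroectoderm markers was 90.7 to 114 in WT dark and 78.3 to 114 in LiTEC dark libraries. In LiTEC dark against WT dark cells, tested below, 2 naive markers were called higher and 5 lower. For neuroectoderm it was 1 higher and 2 lower, for primitive endoderm 3 and 1, and for fibroblasts 0 and 3. Over all genes 23.9% were called higher and 23.7% lower. These lists, as sums or gene by gene, moved with genotype or batch, and their part in the results below was not tested. In bulk RNA, fewer cells of a type and less RNA per cell cannot be told apart.

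Levels are given per kilobase of exon to compare genes, in CPM per kilobase (CPM is a gene's count relative to the library's size, which was scaled by the trimmed mean of M-values, TMM). In the 18 WT libraries Cry1 was highest with a mean of 8.42, followed by Bhlhe40 at 7.04, Clock at 6.65, Per1 at 6.04, Nr1d2 at 5.77, Cry2 at 5.45 and Nr1d1 at 3.99 CPM per kilobase. In the 18 LiTEC libraries Clock led with 13.9, and Cry1 had 6.88, Nr1d2 5.43, Bhlhe40 4.46, Per1 4.42, Cry2 3.85 and Nr1d1 2.86 CPM per kilobase. Dbp (1.83 in WT, 1.44 in LiTEC) and Per3 (0.626 and 0.616) were low in both. Per2 was close to undetected, with 0.178 and 0.0586 CPM per kilobase and 1 to 28 counts in a library. Bhlhe40 spread so widely over libraries (33.1 ± 18.8 CPM, SD, in WT) that its place is not resolved, and from Clock to Cry2 in WT neighbouring values differ by less than the SD of Per1 or Cry2 over libraries.

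**Figure D1:**
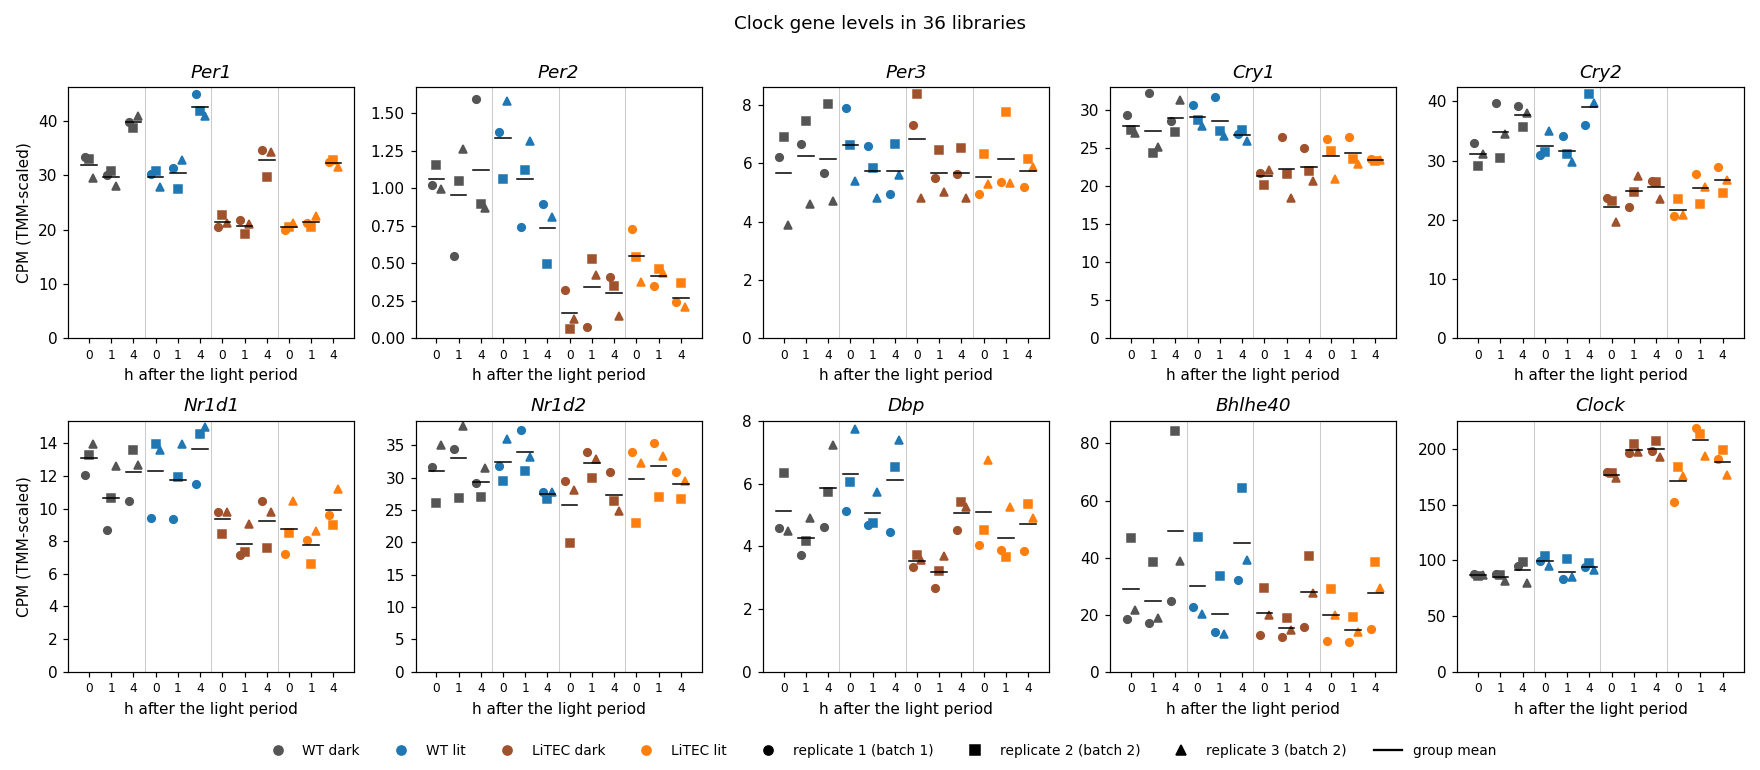
Level of the 10 clock genes in each library, in CPM (counts relative to TMM-scaled library size), against hours after the light period; colours give genotype and light, marker shapes give replicate number and batch, and black bars are means of 3 libraries. Clock sits between 79.8 and 104 CPM in WT and between 152 and 219 CPM in LiTEC libraries, Per1 is highest at 4 h in all 4 series, and replicate 2 is the highest Bhlhe40 library in all 12 groups.

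The genotypes gave the most calls. In LiTEC cells kept dark, 7 of the 10 genes were lower than in WT (Per1, Per2, Cry1, Cry2, Nr1d1, Dbp, Bhlhe40), 1 was higher (Clock), and Per3 and Nr1d2 did not pass the test. Over all tested genes, 23.7% were called lower and 23.9% higher in this comparison. The test was edgeR's quasi-likelihood test on the mean over 0, 1 and 4 h, 9 libraries against 9, with Benjamini-Hochberg adjustment and a call at an adjusted p below 0.05. The lit libraries gave the same 7 lower and 1 higher, where 21.2% of all genes were lower and 22.2% higher. They share no sample with the dark ones but the same genotypes, batches and fit, so they are not an independent test. The median log2 difference of the 10 genes was -0.41 in the dark and -0.39 in the light, against 0.0037 and -0.0031 over all genes.

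Among the repressors, Per1 in WT dark libraries was 33.4, 33.0 and 29.5 CPM at 0 h (replicates 1, 2 and 3), 30.1, 30.8 and 28.1 CPM at 1 h, and 39.9, 38.6 and 41.0 CPM at 4 h. The LiTEC dark libraries had 20.5, 22.6 and 21.3 CPM at 0 h, 21.7, 19.3 and 21.1 CPM at 1 h, and 34.7, 29.6 and 34.2 CPM at 4 h. At each time every LiTEC library was below every WT library, although LiTEC cells at 4 h reached the level of WT cells at 0 h. The share of all genes with such a separation at each time was not counted. The log2 difference was -0.46 ± 0.04 (SE; adjusted p = 1.6e-10), and -0.48 ± 0.04 in lit cells.

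Per2 had the widest relative gap on very few reads. The 9 WT dark libraries had 0.549 to 1.60 CPM with a median of 1.03 CPM, and the 9 LiTEC dark libraries 0.0620 to 0.530 CPM with a median of 0.323 CPM, which do not overlap. The dark libraries of the genotypes did not overlap for 7.87% of all genes. The lit libraries did overlap for Per2, with 0.497 to 1.58 CPM in WT and 0.209 to 0.733 CPM in LiTEC cells. The difference was -1.94 ± 0.27 in the dark (adjusted p = 3.4e-07) and -1.34 ± 0.25 in the light (adjusted p = 4.7e-05). LiTEC libraries held 1 to 13 Per2 counts each, so its size is known only roughly. Per3, which oscillates with the other Per genes in tissues but is dispensable for the core loop, had 3.87 to 8.03 CPM in WT and 4.82 to 8.37 CPM in LiTEC libraries, with a log2 difference in the dark of 0.00 (95% interval -0.26 to 0.27). Per3 lies inside Camta1 on the same strand, and Camta1 was lower in LiTEC dark cells by a log2 difference of -0.76 ± 0.05.

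Cry2, a repressor of CLOCK and BMAL1, separated the genotypes in every library. Its 18 WT libraries had 29.1 to 41.3 CPM (median 34.3) and its 18 LiTEC libraries 19.7 to 28.9 CPM (median 24.0). The log2 difference was -0.51 ± 0.06 in the dark (adjusted p = 2.4e-09) and -0.49 ± 0.06 in the light. Cry2 and Clock were the 2 members whose 18 libraries of each genotype did not overlap, as was the case for 3.59% of all genes. Cry1, its paralogue, had 24.4 to 32.3 CPM in WT and 18.5 to 26.5 CPM in LiTEC libraries, which overlap. Cry1 was lower in all 18 pairs of libraries matched for light, time and number, as were Per1, Per2, Cry2 and Dbp. The share of all genes with this was not counted. The Cry1 differences were -0.35 ± 0.05 in the dark (adjusted p = 7.6e-07) and -0.24 ± 0.05 in the light.

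Of the REV-ERB genes 1 was called. Nr1d1 had 8.66 to 15.0 CPM in WT and 6.58 to 11.2 CPM in LiTEC libraries, and was lower in LiTEC by -0.44 ± 0.09 in the dark (adjusted p = 9.1e-05) and -0.51 ± 0.09 in the light. It overlaps Thra on the opposite strand, which was higher in LiTEC dark cells by 0.30 ± 0.05, and whether the counting used strand is not given in the sources used here. Nr1d2 had 26.2 to 37.9 CPM in WT and 19.8 to 35.3 CPM in LiTEC libraries and was not called, at -0.13 (95% interval -0.28 to 0.02; adjusted p = 0.145). With the replicate number as a block Nr1d2 was called lower in the dark (-0.13, adjusted p = 0.0389). The difference between the responses of the 2 REV-ERB genes was not tested.

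Dbp, the D-box activator, and Bhlhe40 were both lower in LiTEC cells with wide overlap. Dbp had 3.72 to 7.76 CPM in WT and 2.67 to 6.74 CPM in LiTEC libraries, a log2 difference of -0.39 ± 0.10 in the dark (adjusted p = 0.0014) and -0.30 ± 0.09 in the light (adjusted p = 0.0093). Without the batch term the lit value lost its call (adjusted p = 0.0521), as it did in batch 2 alone (0.0627). Bhlhe40 had 13.2 to 84.3 CPM in WT and 10.5 to 40.7 CPM in LiTEC libraries, with differences of -0.66 ± 0.19 in the dark (adjusted p = 0.0038) and -0.64 ± 0.19 in the light (adjusted p = 0.0062). Its calls were lost without the batch term (adjusted p = 0.0584 dark, 0.0949 lit) and, for lit cells, in batch 2 alone (0.146). Bhlhe40 lies on chromosome 6, where the median log2 difference of 679 genes was -0.16 between the dark genotypes, against -0.01 for 14472 genes of all chromosomes; the part of this shift in the Bhlhe40 value was not tested.

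**Figure D2:**
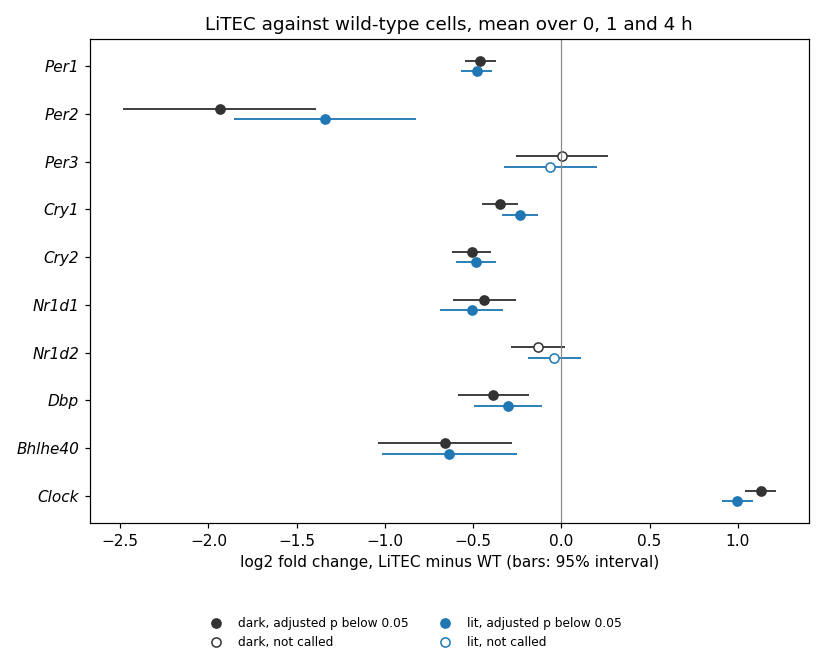
Log2 fold change of LiTEC over WT cells for each clock gene (horizontal axis), averaged over 0, 1 and 4 h, in dark (black) and lit (blue) libraries; bars are 95% intervals and filled points passed an adjusted p of 0.05. Clock is on the right at 1.13 and 1.00, and 7 genes are on the left in both.

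Clock was the member with higher levels in LiTEC cells. WT dark libraries had 87.8, 85.9 and 86.7 CPM at 0 h, 87.9, 87.2 and 81.3 CPM at 1 h, and 95.3, 98.4 and 79.8 CPM at 4 h. LiTEC dark libraries had 179, 178 and 174 CPM at 0 h, 197, 205 and 198 CPM at 1 h, and 199, 208 and 193 CPM at 4 h. The lowest LiTEC library of either light condition (152 CPM) was above the highest WT library (104 CPM). The difference was 1.13 ± 0.04 in the dark (2.19-fold; adjusted p = 4.6e-21) and 1.00 ± 0.04 in the light (adjusted p = 1.7e-19).

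The genes around Clock (chromosome 5, 76209868 to 76304792, minus strand, GRCm38) were read with the same contrast. Of 18 neighbours within 1 Mb with at least 1 CPM, 11 were called higher and 3 lower in LiTEC dark cells, where 23.9% of all genes were higher and 23.7% lower. Their median was 0.29, whereas the median over 991 genes of chromosome 5 was -0.01. Tmem165, a Golgi membrane protein gene beyond the 3' end of Clock, was higher by 1.61 ± 0.04, and Srd5a3, a gene of dolichol synthesis next to it, by 0.55 ± 0.07. Kdr, the VEGF receptor 2 gene, was higher by 1.54 ± 0.12 at 3.86 CPM. On the same side the pseudogene Apc-ps1 was higher by 2.08 ± 0.16 at 3.09 CPM, and Kit, farther out beyond Kdr, was lower by -0.29 ± 0.04. On the other side Pdcl2 (-0.28 ± 0.11) and Noa1 (-0.49 ± 0.09) were lower and Exoc1 did not pass the test (0.04 ± 0.03). Higher there were Rest, a repressor of neuronal genes, by 0.69 ± 0.05, Mir5098 by 1.65 ± 0.20 at 1.43 CPM, Aasdh by 0.40 ± 0.08, Cep135 by 0.11 ± 0.04 and Paics by 0.06 ± 0.02. Gm43658 and the pseudogene Ube2n-ps1 overlap Clock on the same strand and may share reads with it. They were higher by 1.31 ± 0.10 and 0.73 ± 0.15, and both count among the 11. The neighbourhoods of the other 9 members had medians of -0.14 to 0.02. Around Per1, 6 of 64 neighbours were called higher and 31 lower, and around Nr1d1 6 and 14 of 34. For Per3 it was 2 and 8 of 19, for Bhlhe40 2 and 4 of 8, and for Nr1d2 1 and 2 of 4. For Per2 it was 3 and 4 of 14, for Cry1 2 and 3 of 17, for Cry2 5 and 4 of 21, and for Dbp 19 and 18 of 71. The part of these surroundings in the values of the members was not tested.

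**Figure D3:**
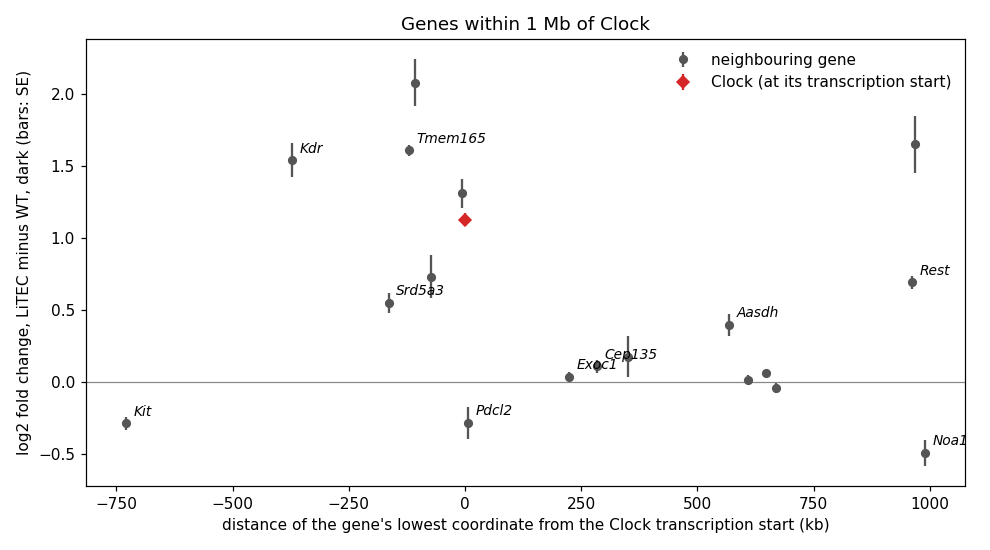
Log2 fold change of LiTEC over WT dark cells for 18 genes within 1 Mb of Clock, against the distance in kilobases of each gene's lowest coordinate from the Clock transcription start; bars are SE and the red diamond is Clock. Tmem165 at 1.61 and Kdr at 1.54 stand on the left, where Kit is at -0.29, and Clock is at 1.13; on the right Exoc1 is at 0.04, Rest at 0.69 and Noa1 at -0.49.

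Other clock genes were read from lists chosen with results of these data known, and their counts between the dark genotypes stand beside the 23.7% of all genes called lower and 23.9% called higher there (47.6% either way). None of the 4 tested genes of the positive limb and its ROR activators (Arntl, Arntl2, Npas2, Rora) was called between the dark genotypes; Arntl, the partner of Clock, had a mean of 16.6 CPM and differed by -0.03 ± 0.06. By edgeR 0 of the 4 had an unadjusted p below 0.05, and DESeq2 called 0. The median of the 4 was 0.14. All 6 listed genes, of which 4 were tested, summed to 21.9 to 28.6 CPM in WT dark and 23.4 to 27.2 CPM in LiTEC dark libraries. Most of that sum was Arntl, so the values of the others rest on low levels. Of 6 further clock-controlled repressors and PAR-family factors, 4 were lower in LiTEC cells (median of the 6, -0.55), namely Hlf by -1.51 ± 0.14, Bhlhe41 (DEC2) by -1.20 ± 0.27, Ciart by -0.77 ± 0.11 and Cipc by -0.33 ± 0.06, while Tef and Nfil3 were not called. Of 10 genes of PER and CRY protein turnover, 4 were higher (Csnk1e, the casein kinase 1 epsilon gene, by 0.53 ± 0.05, Btrc by 0.47 ± 0.04, Gsk3b by 0.13 ± 0.04 and Csnk1a1 by 0.08 ± 0.03) and 3 lower (Usp2 by -0.39 ± 0.12, Csnk2a1 by -0.24 ± 0.02 and Csnk1d by -0.15 ± 0.04), with a median of 0.05 and 7 of 10 called either way against that 47.6%.

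The next lists stand beside the same shares between the dark genotypes, 23.7% of all genes called lower and 23.9% higher. Of 9 nuclear proteins tied to the clock complexes, 5 were lower and none higher there (median -0.10). They were Wdr5 (-0.37 ± 0.04), Ncor1 (-0.37 ± 0.04) and Hdac3 (-0.21 ± 0.04), the latter pair a co-repressor and a deacetylase used by REV-ERB proteins, with Kdm5a (-0.20 ± 0.03) and Timeless (-0.09 ± 0.03). The list of glucocorticoid receptor targets, which share that input with Per1, also holds the receptor gene Nr3c1. It had 4 of 6 lower (Zbtb16 by -1.56 ± 0.24, Fkbp5 by -0.50 ± 0.05, Sgk1 by -0.50 ± 0.05 and Klf9 by -0.21 ± 0.03). Nr3c1 was higher by 0.23 ± 0.05, and the target Tsc22d3 was not called. Hypoxia targets, a class to which Bhlhe40 also belongs, had 4 of 6 lower (Ndrg1 by -0.999 ± 0.09, Bnip3 by -0.88 ± 0.14, Egln3 by -0.68 ± 0.15 and Pdk1 by -0.11 ± 0.03), with summed levels of 262 to 351 CPM in WT dark and 222 to 260 CPM in LiTEC dark libraries. Of 9 genes of CREB and SIK signalling, Crtc3 (0.84 ± 0.15) and Crtc1 (0.39 ± 0.06) were higher and Dusp1 (-0.26 ± 0.07) and Nr4a1 (-0.14 ± 0.05) lower. Of 6 targets of the heat shock factor HSF1, Dnajb1 was higher by 0.19 ± 0.05 and the chaperone genes Hspa8 (-0.37 ± 0.06) and Hsp90aa1 (-0.24 ± 0.03) were lower, with a median of -0.14.

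Fewer members differed with time. From 0 to 4 h without light, averaged over both genotypes, Per1, Cry2 and Dbp rose, against 7.82% of all genes. In the lit libraries, which are other samples of the same genotypes and batches, Per1 and Cry2 also rose, against 7.04% of all genes, and Per2 fell, against 6.42%. From 0 to 1 h in the dark no member was called by edgeR or DESeq2, with 3 at an unadjusted p below 0.05 and 1.31% of all genes called. Hours after the light period, hour of the day and time in culture run together here and cannot be told apart.

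Per1 had the lowest adjusted p of these, in dark and in lit cells. In each of the 4 series every 4 h library was above every 0 h and 1 h library. How many of all genes separate in this way was not counted. WT lit cells had 30.2, 30.9 and 27.8 CPM at 0 h, 31.3, 27.4 and 32.8 CPM at 1 h and 44.9, 41.8 and 40.9 CPM at 4 h. LiTEC lit cells had 20.0, 20.4 and 21.2 CPM at 0 h, 21.2, 20.4 and 22.6 CPM at 1 h and 32.4, 32.8 and 31.6 CPM at 4 h. The 4 h change was 0.46 ± 0.05 in the dark (adjusted p = 4.5e-07) and 0.59 ± 0.05 in the light (adjusted p = 3.9e-09), so it was present with and without light. The dark change was larger in LiTEC than in WT cells by 0.30 ± 0.11 (unadjusted p = 0.00878), which did not hold after adjustment over all genes (0.94); no member was called in that comparison by edgeR or DESeq2, where 0% of all genes were, nor in the lit one, where 0.011% were and 1 member had an unadjusted p below 0.05.

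Cry2 rose by 0.24 ± 0.07 in the dark (adjusted p = 0.0136) and by 0.29 ± 0.07 in the light (adjusted p = 0.0035). WT dark libraries went from 33.0, 29.1 and 31.0 CPM at 0 h to 39.2, 35.7 and 37.9 CPM at 4 h, and LiTEC dark libraries from 23.6, 23.1 and 19.7 CPM to 26.6, 26.3 and 23.5 CPM. The 4 h library was higher in 6 of 6 same-numbered pairs in the dark and 6 of 6 in the light. The dark call was lost without replicate 3 of LiTEC dark 0 h (adjusted p = 0.0554), and in batch 2 alone both the dark (0.0519) and the lit call (0.0603) were lost.

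Dbp rose from 4.34 to 5.47 CPM between the dark 0 h and 4 h libraries (log2 difference 0.34 ± 0.12, adjusted p = 0.0459) and was higher in 5 of 6 pairs. In lit cells its difference was -0.09 (95% interval -0.32 to 0.15). The dark call was lost in 11 of 19 alternative settings, 8 of which leave out 1 library; the lowest value was 0.27 (adjusted p = 0.136) without replicate 3 of WT dark 0 h. Per2 fell in lit cells by -0.94 ± 0.32 (adjusted p = 0.047), from 0.945 to 0.503 CPM on 4 to 26 counts a library, and that call was lost in 13 of 19 settings, DESeq2 included (adjusted p = 0.0536).

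Bhlhe40 had the widest scatter over libraries. WT dark cells had 18.4, 47.0 and 21.6 CPM at 0 h, 17.1, 38.6 and 18.8 CPM at 1 h and 24.9, 84.3 and 38.8 CPM at 4 h. LiTEC dark cells had 13.0, 29.4 and 19.9 CPM at 0 h, 12.3, 18.8 and 14.8 CPM at 1 h and 15.8, 40.7 and 27.5 CPM at 4 h. Replicate 2 was the highest library of all 12 groups, so the groups overlap, yet the 4 h library exceeded the 0 h library of its number in 6 of 6 dark and 6 of 6 lit pairs. The 4 h difference was 0.57 ± 0.22 in the dark (adjusted p = 0.0793) and 0.53 ± 0.23 in the light (adjusted p = 0.124), neither called. With replicate number as a block both were called (dark 0.57, adjusted p = 0.00021; lit 0.54, adjusted p = 0.00036), and with that block Clock also passed in the dark (0.12, adjusted p = 0.0312), which makes 5 members. Replicate 2 was also the highest library of Per3 in 10 groups and the lowest of Nr1d2 in 11. The summed hypoxia targets had medians of 253, 259 and 252 CPM in replicates 1, 2 and 3. Their highest libraries had 309, 351 and 287 CPM. The relation of these sums to the Bhlhe40 scatter was not tested.

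**Figure D4:**
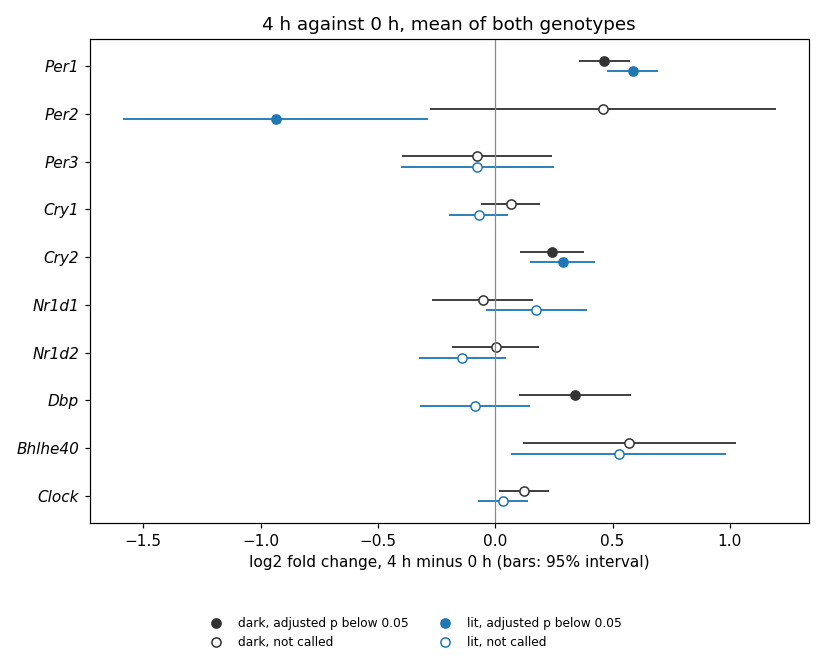
Log2 fold change from 0 to 4 h for each clock gene, mean of both genotypes, in dark (black) and lit (blue) cells; bars are 95% intervals and filled points passed an adjusted p of 0.05. Per1 and Cry2 are filled on the right in both, Dbp only in the dark and Per2, on the left, only in the light.

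Among the listed clock genes, Nfil3, a D-box repressor, rose by 0.47 ± 0.13 and Tef, a D-box activator related to Dbp, by 0.27 ± 0.07 from 0 to 4 h in the dark, 2 of 6 in that list (median 0.19), where 7.82% of all genes rose and 7.65% fell. Of the 4 tested positive-limb genes edgeR and DESeq2 called 0, with 1 at an unadjusted p below 0.05, and Arntl was at -0.04 ± 0.07. Of the turnover genes Fbxw11 (0.17 ± 0.04) and Csnk1d (0.15 ± 0.05) rose, of the CREB and SIK list Nr4a1 (0.36 ± 0.06) and Crtc2 (0.33 ± 0.06), and of the nuclear proteins Nono (-0.21 ± 0.05) and Timeless (-0.16 ± 0.04) fell. Of the glucocorticoid receptor targets only Klf9 was called, lower by -0.16 ± 0.04. Of the heat shock factor list, Hspa1b (1.08 ± 0.30) and Dnajb1 (0.19 ± 0.07) rose and Hspa8 (-0.27 ± 0.07) fell, and of the hypoxia list Pdk1 fell (-0.22 ± 0.04).

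Few of these genes differed with blue light. Within a genotype no member was called by edgeR or DESeq2 at any time. In WT cells 2.86%, 0.286% and 0% of all genes were called at 0, 1 and 4 h, and in LiTEC cells 0.934%, 0.115% and 0.011%. At an unadjusted p below 0.05 there was 1 member in WT cells at 0 h (Clock), 2 in LiTEC cells at 0 h (Per2, Dbp), 1 in LiTEC cells at 1 h (Dbp) and 0 in the other 3 comparisons; over all genes at 4 h in WT cells, 1484 had such a p and DESeq2 called 18. Clock in WT cells at 0 h was 99.3, 104 and 95.5 CPM after light against 87.8, 85.9 and 86.7 CPM in the dark, with a difference of 0.20 ± 0.07 (adjusted p = 0.166), not called. With replicate number as a block that value was called (0.20, adjusted p = 0.0426).

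Averaged over both genotypes, Dbp was the 1 member called at 0 h, against 2.76% of all genes called higher. WT cells had 5.13, 6.05 and 7.76 CPM after light against 4.59, 6.34 and 4.49 CPM in the dark, and LiTEC cells 4.06, 4.52 and 6.74 CPM against 3.36, 3.72 and 3.57 CPM. The groups overlap in WT cells, and over both genotypes 5 of 6 same-numbered pairs were higher after light. The difference was 0.40 ± 0.12 (adjusted p = 0.0367). It was lost in 11 of 19 alternative settings, 8 of which leave out 1 library, down to 0.30 (adjusted p = 0.206) without replicate 3 of LiTEC lit 0 h. At 1 h the difference was 0.34 ± 0.12 (6 of 6 pairs, adjusted p = 0.202) and at 4 h -0.02 ± 0.11. The 0 h light value and the 0 to 4 h dark change of Dbp share the same 6 dark 0 h libraries, so they are not separate observations. Dbp overlaps Sphk2 on the opposite strand, which had a mean of 39.6 CPM and differed by -0.03 ± 0.09 with light at 0 h. Whether the counting used strand is not given, and the part of shared reads in the Dbp values was not tested.

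Per2 after light at 0 h was 0.733, 0.542 and 0.378 CPM in LiTEC cells against 0.323, 0.0620 and 0.132 CPM in the dark, on 6 to 13 and 1 to 5 counts. The difference over both genotypes was 0.99 ± 0.34 (adjusted p = 0.0861), called without replicate 1 of LiTEC dark 0 h (1.40, adjusted p = 0.039). It shares the lit 0 h libraries with the 0 to 4 h fall of Per2 above. Per1, the usual acute responder, was -0.09 at 0 h (95% interval -0.20 to 0.02), 0.05 at 1 h (-0.07 to 0.16) and 0.03 at 4 h (-0.07 to 0.14). Cry1, Cry2, Nr1d1, Nr1d2, Per3, Bhlhe40 and Clock had pooled differences between -0.17 and 0.14 over the 3 times, none called. In same-numbered pairs at 0 h, Nr1d2 was higher after light in 6 of 6 and Per1 in 0 of 6. For Per2, Cry1 and Clock it was 5, for Cry2 4, for Per3 and Nr1d1 3, and for Bhlhe40 2. Over both genotypes no member was called at 1 h, where 1.14% of all genes were and 1 member (Dbp) had an unadjusted p below 0.05, or at 4 h, where 0.275% and 0 did; DESeq2 called none at either time.

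**Figure D5:**
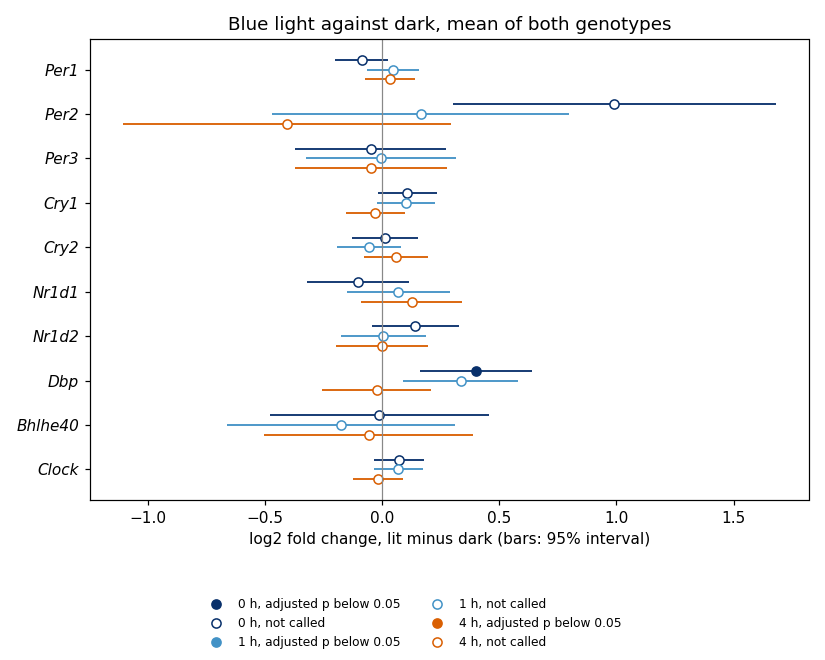
Log2 fold change of lit over dark cells for each clock gene, mean of both genotypes, at 0, 1 and 4 h; bars are 95% intervals and filled points passed an adjusted p of 0.05. Dbp at 0 h (0.40) is the only filled point, and the Per2 intervals are the widest.

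For a difference of the light effect between LiTEC and WT cells, edgeR and DESeq2 called 0 members at 0, 1 or 4 h, where 0.022%, 0% and 0% of all genes were called. At an unadjusted p below 0.05 there was 1 member (Clock) at 0 h and 0 at the later times. For Dbp the interval of the difference at 0 h was -0.23 to 0.73 and for Per2 -0.05 to 2.71. Nor was a member called for a change of the light effect from 0 to 1 h (1.14% of all genes, 0 members at an unadjusted p below 0.05) or from 1 to 4 h (0.231%, 1 member, Dbp), and DESeq2 called none.

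Cells taken 0 h after light differed in listed genes outside the core loop. Targets of HSF1, the heat shock factor that is known to carry temperature signals to the clock, had 4 of 6 higher over both genotypes (Hspa1a by 4.37 ± 0.38, Hspa1b by 2.78 ± 0.29, Dnajb1 by 0.68 ± 0.06 and Hsph1 by 0.63 ± 0.09; median 0.65), beside 2.76% of all genes called higher (2.61% lower). Of the glucocorticoid receptor targets Tsc22d3 (GILZ) was higher by 0.92 ± 0.23 at a mean of 1.18 CPM and Klf9 lower by -0.13 ± 0.04, and of the other lists Nr4a1 (0.24 ± 0.06) and Sirt1 (0.19 ± 0.05) were higher. No gene of the positive limb, the further repressors, PER and CRY turnover or the hypoxia list was called by edgeR or DESeq2, and 0 of them had an unadjusted p below 0.05. Gm43658 within Clock was higher by 0.59 ± 0.12 (adjusted p = 0.0022), while Clock over both genotypes was 0.07 ± 0.05.

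Genes of similar pattern were sought for Dbp, called in 3 of the 17 planned comparisons, and Per1, called in 2; Cry2 was also called in 2 and was passed over for its lower mean (29.38 against 29.45 CPM). They were ranked by Pearson's r over the 12 group means of batch-adjusted log2 CPM among 9755 genes. For Per1 they were Mtm1 (r = 0.99), Mxi1 (0.97), Xrcc2 (0.97), Rasa4 (0.97) and Actr8 (0.97). For Dbp they were Zscan20 (0.97), Isca1 (0.96), Plagl2 (0.96), Exog (0.95) and Inpp5b (0.95). Within the set, over the same 12 group means, Per2 and Cry1 had r = 0.97 and Per1 and Bhlhe40 r = 0.90, Clock ran opposite to Cry1 (r = -0.91), and Per3 stayed between -0.16 and 0.04 with every other member. These values describe groups that share genotype, time and batch structure.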

How the data were processed

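Stranded mRNA libraries (36) from TRIzol RNA of mouse embryonic stem cells were analysed from the deposited table of raw counts per gene, made by the authors with featureCounts on mm10 (GRCm38) after FastQC, per the submitters' processing notes; aligner, strand setting and handling of multi-mapped reads: not given in the sources used here. Gene symbols came with the table. Counts were tested with edgeR 4.0.16 (R 4.3.3; filterByExpr with a minimum count of 10, TMM, glmQLFit and glmQLFTest) in 1 fit of 12 group means plus batch, leaving 23 residual degrees of freedom; the 18193 genes tested were adjusted together (Benjamini-Hochberg). There were 17 planned comparisons and 4 added after values were seen (0 to 4 h in lit cells, the genotypes in lit cells, and the genotype difference of the 0 to 4 h change, dark and lit). Errors are SE and intervals 95%. The script was tested on simulated data.

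The members and lists were chosen with earlier results of these data known. All 10 members are named, as are genes of the pathway lists (not the cell type markers) called between the dark genotypes, from 0 to 4 h in the dark or with light at 0 h over both genotypes. For the 2 members called in the most planned comparisons (ties went to the larger mean CPM), the 5 genes of most similar pattern are named. Neighbours of Clock were chosen after their values were seen. Levels per kilobase use merged exons of GENCODE M21. No 2 replicates were alike within sampling noise (lowest chi-square per degree of freedom 3.82). Same-numbered libraries deviated together: mean correlations within planned comparisons were 0.519 to 0.696, and the lowest of a pair was 0.203. The main fit holds batch and not this number, so the number was used as a block in an alternative (DESeq2 1.42.0, other scalings, filters and batch settings were others).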

Additional observations from a re-analysis of the deposited data

How the results depend on the processing

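Of 23 member and comparison pairs called, 549 values were recomputed under alternatives: 506 kept their call and direction, 43 were not called and 0 reversed. The genotype calls other than those of Bhlhe40 and of Dbp in lit cells, and the 0 to 4 h rise of Per1, held in every setting run. With the replicate number as a block, the count of members called rose from 0 to 1 for light in WT cells at 0 h (Clock) and from 3 to 5 for 0 to 4 h in the dark (Bhlhe40, Clock added); the block changed no other count by over 1.5 times. For light over both genotypes at 0 h, 1 member became 0 without the batch term, in batch 2 alone, with no filter on low counts and with a mean of at least 5 CPM (which leaves Dbp untested), and 0 to 2 when 1 library was left out. From 0 to 1 h in the dark, no filter gave 1 in place of 0 (Bhlhe40). From 0 to 4 h, batch 2 alone gave 1 in the dark and 1 in the light in place of 3, and leaving out 1 library gave 1 to 4 in the dark (1 without replicate 3 of LiTEC dark 0 h) and 2 to 3 in the light. Bhlhe40 in the dark was called without replicate 2 of WT dark 0 h (0.74, adjusted p = 0.0314) or replicate 3 of WT dark 4 h (0.69, adjusted p = 0.0393), and Clock without the latter (0.17, adjusted p = 0.016). The causes were not tested, beyond fewer samples in batch 2 alone. Counts over all genes moved too: light in WT cells at 0 h gave 520 genes, 870 with the block and 141 in batch 2 alone, and 0 to 4 h in the dark 2814, 3835 and 1210. Counts of 1 to 28 a library limit Per2.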
